A study of Mus musculus with 18 samples.

Results

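Hedgehog pathway genes were read on Affymetrix mouse Gene ST 1.0 arrays from medulloblastomas, tumours of the cerebellum, in mice. The 10 genes described here are the core components Ptch1, Smo, Sufu, Gli1, Gli2, Gli3, Hhip, Boc, Cdon and Gas1, chosen by symbol from the 19938 genes that the arrays measured. Each of the 10 had 1 probe set. The 18 tumours fell into 5 groups, GFD-Smo;GFAP-cre (n = 4), NG-Smo;Atoh1-CreER (n = 4), GFI-Ptch (n = 4), GFD-Ptch (n = 2) and NG-Ptch (n = 4). The groups are written GFD-Smo, NG-Smo, GFI-Ptch, GFD-Ptch and NG-Ptch below. NG, GFD and GFI are names of tumour subtypes that the labels leave unexplained. Smo tumours were made with Cre driven by the GFAP promoter in GFD-Smo and with the inducible CreER driven by the Atoh1 promoter in NG-Smo, so subtype and Cre driver cannot be told apart there. The labels name the models Ptch and Smo without stating the Smo allele, the Ptch alleles, the strain or the age of the mice. A gender label of M or F was given for 13 of the 18 arrays, and how it lies across the groups is not shown here. Array replicate 4 of GFI-Ptch was labelled as a tumour that progressed from another one in an NSG female host, a strain that lacks lymphocytes, and is called the transplanted tumour. Whether replicates were separate animals is not said in the labels, and the p-values cover the spread among these arrays, which may differ from that among animals.

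Hedgehog signalling begins when a secreted ligand binds Patched1, the product of Ptch1, a membrane protein that otherwise holds Smoothened in check. Boc, Cdon and Gas1 are co-receptors that help present the ligand, and Hhip is a membrane protein that captures ligand and dampens the signal. Once released, Smoothened acts at the primary cilium and frees the Gli transcription factors from their inhibitor Sufu. Gli2 is the main activator, Gli3 acts mostly as a repressor, and Gli1 is both an activator and a target gene. Ptch1 and Hhip are targets as well, which gives the pathway negative feedback. In the developing cerebellum the ligand Sonic hedgehog drives division of granule neuron progenitors, the cells from which this kind of medulloblastoma is thought to arise.

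Promoters of 3 of the genes whose levels differed between groups are shown as the stretches from which they are transcribed. They are RefSeq sequences of build GRCm38.p6, each running from 250 bases before to 50 bases after the gene's start on the gene's own strand. The Hhip window lies at chr8:80057959-80058258 on the minus strand, the Gli3 window at chr13:15463473-15463772 on the plus strand, and the Ptch1 window at chr13:63565686-63565985 on the minus strand. Capitals mark CCACCC or its reverse complement GGGTGG, the core of the Gli binding site.
Hhip: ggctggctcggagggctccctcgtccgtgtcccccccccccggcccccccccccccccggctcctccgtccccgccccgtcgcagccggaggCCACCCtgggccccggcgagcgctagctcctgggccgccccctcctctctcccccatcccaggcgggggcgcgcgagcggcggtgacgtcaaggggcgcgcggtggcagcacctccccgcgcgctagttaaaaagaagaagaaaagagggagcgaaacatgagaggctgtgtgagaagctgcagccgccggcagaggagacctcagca
Gli3: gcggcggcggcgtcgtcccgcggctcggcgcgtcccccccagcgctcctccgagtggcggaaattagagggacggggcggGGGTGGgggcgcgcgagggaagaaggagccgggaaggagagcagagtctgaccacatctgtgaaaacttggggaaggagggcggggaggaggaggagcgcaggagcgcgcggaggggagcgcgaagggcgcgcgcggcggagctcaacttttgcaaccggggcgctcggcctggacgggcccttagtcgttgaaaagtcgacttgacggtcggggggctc
Ptch1: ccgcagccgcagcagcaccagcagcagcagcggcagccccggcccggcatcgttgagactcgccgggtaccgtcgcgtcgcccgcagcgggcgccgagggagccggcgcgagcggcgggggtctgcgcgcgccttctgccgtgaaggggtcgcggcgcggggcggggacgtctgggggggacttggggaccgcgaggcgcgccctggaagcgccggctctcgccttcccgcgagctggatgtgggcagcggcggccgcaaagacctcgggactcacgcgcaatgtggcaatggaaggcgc

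The RefSeq table matched 8 of the 10 genes, and Gli1 and Boc were not matched. The full Gli consensus GACCACCCA, read on both strands, was found in 0 of the 8 windows, exact or with 1 mismatch. It was present exactly in 0.253% of all 32851 promoter windows of the same length, and with up to 1 mismatch in 6.74%. The shorter core, which forms part of the consensus, was found in 4 of the 8, those of Smo, Gli2, Gli3 and Hhip, against 31.5% of all windows. Ptch1, Sufu, Cdon and Gas1 had no core match in these windows. The windows were rich in G and C, 73.7% of bases for Hhip, 71.0% for Gli3 and 76.3% for Ptch1.

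Values were deposited on the log2 scale, where a difference of 1 is a doubling, and array medians lay between 7.74 and 7.87. Granule neuron progenitor markers, which check the labelled tumour type, were high. The mean of the 10 markers ran from 11.06 to 11.37 over the 18 arrays, and the lowest Atoh1 level on any array was 11.78. The transplanted tumour stood apart with a mean of 9.72 over 10 skeletal muscle genes, against 6.94 to 7.10 in the other 3 GFI-Ptch arrays. Its mean correlation with its own group, 0.9724, was the lowest of the 18 arrays. NG-Smo replicate 4 was left out together with it in 1 alternative, and its own mean correlation of 0.9846 was close to the 0.9856 to 0.9883 of the other NG-Smo arrays. Comparisons were made with limma across all genes, and a gene was called at a Benjamini-Hochberg adjusted p under 0.05.

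Gli3, Hhip and Ptch1 varied most among the components. The range of the 5 group means was 1.93 log2 units for Hhip, 1.91 for Gli3 and 1.41 for Ptch1, against a median range of 0.25 over all genes. Sufu followed with 0.59, Gli2 with 0.49, Gas1 with 0.47, Boc with 0.46, Gli1 with 0.39 and Smo with 0.31. Cdon hardly varied, with a range of 0.06. Gli3 and Hhip were high in the GFD-Smo tumours, whereas Ptch1 was high in both Smo groups.

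**Figure D1:**
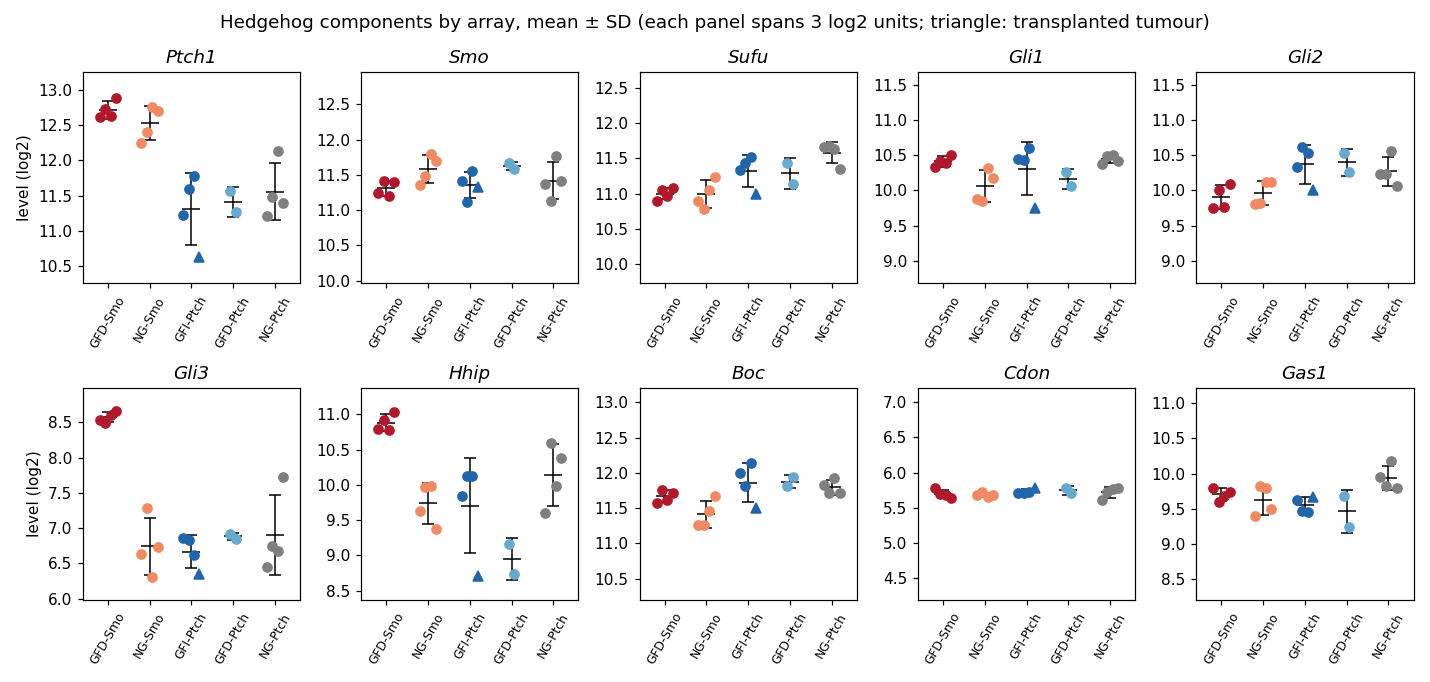
Log2 level of each component (vertical axis, log2 units) on each of the 18 arrays, by group, with the group mean and SD as bars and the transplanted tumour as a triangle. Every panel spans 3 log2 units, so Gli3, Hhip and Ptch1 show the widest spread between groups, and Gli3 sits between 8.49 and 8.66 in GFD-Smo tumours, above every other array.

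Ptch1 encodes the ligand receptor and is also a target of the pathway. GFD-Smo tumours read 12.61, 12.73, 12.62 and 12.88, and NG-Smo tumours 12.25, 12.40, 12.75 and 12.70. Levels were 11.22, 11.59, 11.78 and 10.62 in GFI-Ptch, 11.56 and 11.26 in GFD-Ptch, and 11.21, 11.49, 12.14 and 11.39 in NG-Ptch. All 8 Smo arrays were above all 10 Ptch arrays, and the lowest array was the transplanted tumour. The share of all genes that split in this way was not counted. GFD-Smo averaged 12.71 ± 0.13, NG-Smo 12.53 ± 0.24, GFI-Ptch 11.31 ± 0.51, GFD-Ptch 11.41 ± 0.21 and NG-Ptch 11.56 ± 0.40 (SD). In descending order the groups were GFD-Smo, NG-Smo, NG-Ptch, GFD-Ptch and GFI-Ptch. Of these neighbours, NG-Smo and NG-Ptch were the one pair whose arrays did not overlap, as was so for 5.65% of all genes between those groups.

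Ptch1 was 1.30 log2 units higher in GFD-Smo than in GFD-Ptch (SE 0.28, adjusted p = 0.00549), a 2.46-fold difference. In that comparison 15.6% of all genes were called, and 3 of the 10 components, Ptch1, Gli3 and Hhip, all higher. Without GFD-Ptch replicate 2 the Ptch1 call was lost (1.15, adjusted p = 0.0907). Between NG-Smo and NG-Ptch the Ptch1 difference was 0.97 (SE 0.23), with an adjusted p of 0.0544. That difference passed without GFI-Ptch replicate 3 (adjusted p = 0.0428), without the transplanted tumour (0.0130) or without NG-Ptch replicate 4 (1.16, 0.0298). Averaged over NG and GFD tumours, Ptch1 was 1.13 higher in Smo than in Ptch tumours (SE 0.18, adjusted p = 0.00081). The labels do not say which part of Ptch1 the Ptch model alters, and the files do not say where the probes lie, so Ptch1 level and Ptch genotype cannot be told apart.

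Within a model no Ptch1 difference between subtypes passed the test. The difference was 0.19 between GFD-Smo and NG-Smo (95% interval -0.29 to 0.66, adjusted p = 0.852), -0.14 between GFD-Ptch and NG-Ptch (-0.73 to 0.44, 0.807) and -0.25 between GFI-Ptch and NG-Ptch (-0.73 to 0.23, 0.789).

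Hhip, the ligand-trapping feedback gene, set the GFD-Smo tumours apart and ran the other way in the GFD-Ptch tumours. Levels in GFD-Smo were 10.80, 10.91, 10.78 and 11.03, and in NG-Smo 9.62, 9.97, 9.98 and 9.38. GFI-Ptch tumours read 9.84, 10.13, 10.13 and 8.71, GFD-Ptch tumours 9.16 and 8.74, and NG-Ptch tumours 9.61, 10.59, 9.98 and 10.38. GFD-Smo arrays were higher than every other array, and the lowest array was the transplanted tumour, next to GFD-Ptch replicate 2. Means were 10.88 ± 0.12 in GFD-Smo, 9.74 ± 0.29 in NG-Smo, 9.70 ± 0.67 in GFI-Ptch, 8.95 ± 0.29 in GFD-Ptch and 10.14 ± 0.43 in NG-Ptch. From high to low the groups ran GFD-Smo, NG-Ptch, NG-Smo, GFI-Ptch and GFD-Ptch. Apart from the first and second of this order, each pair of neighbours overlapped. Between GFD-Smo and NG-Smo 12.6% of all genes did not overlap, and between GFD-Smo and GFD-Ptch 57.1%. That share was not counted for GFD-Smo and NG-Ptch.

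Hhip was 1.14 log2 units higher in GFD-Smo than in NG-Smo (SE 0.28, adjusted p = 0.0228), a 2.21-fold difference. That call was lost in 6 of the 18 fits that left out 1 array. Without GFD-Smo replicate 1, 2, 3 or 4 the differences were 1.17, 1.13, 1.18 and 1.09 with adjusted p-values of 0.0530, 0.0639, 0.0519 and 0.0636. Without NG-Smo replicate 1 it was 1.10 (0.0582) and without NG-Smo replicate 4 it was 1.02 (0.0630). Against GFD-Ptch, Hhip in GFD-Smo was 1.93 higher (SE 0.34, adjusted p = 0.00146), and this call held in all 18 such fits. In these whole-tumour samples fewer cells of a type and less RNA per cell cannot be told apart.

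Between GFD-Ptch and NG-Ptch the Hhip difference was -1.19 (SE 0.34, 95% interval -1.91 to -0.47), with an adjusted p of 0.163. The arrays of these groups did not overlap, as was so for 34.6% of all genes between these groups of 2 and 4. Without the transplanted tumour, which is in neither group but enters the shared spread, the same difference had an adjusted p of 0.0359. The GFD minus NG difference in Smo tumours exceeded that in Ptch tumours by 2.33 log2 units (SE 0.44, 95% interval 1.41 to 3.26, adjusted p = 0.00907). This test of the difference between models was passed by 3.81% of all genes and by 2 of the 10 components, Hhip and Gli3. Hhip lost that call without GFD-Ptch replicate 2 (2.12, adjusted p = 0.0679) and with the gender label as a covariate (1.82, 0.0967).

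Gli3, the factor best known as a repressor, was high in the GFD-Smo tumours. GFD-Smo arrays read 8.54, 8.49, 8.60 and 8.66, and NG-Smo arrays 6.63, 7.29, 6.31 and 6.73. Levels were 6.86, 6.83, 6.62 and 6.35 in GFI-Ptch, 6.91 and 6.85 in GFD-Ptch, and 6.44, 6.74, 6.68 and 7.72 in NG-Ptch. No other group reached the GFD-Smo levels, and NG-Ptch replicate 5 came nearest. Of all genes 12.6% did not overlap between GFD-Smo and NG-Smo and 57.1% between GFD-Smo and GFD-Ptch. The share of genes with GFD-Smo apart from every other group was not counted. The GFD-Smo mean was 8.57 ± 0.07. The other means were 6.74 ± 0.41 for NG-Smo, 6.67 ± 0.24 for GFI-Ptch, 6.88 ± 0.05 for GFD-Ptch and 6.90 ± 0.57 for NG-Ptch. Below GFD-Smo the order was NG-Ptch, GFD-Ptch, NG-Smo and GFI-Ptch, and these neighbours overlapped.

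GFD-Smo exceeded NG-Smo in Gli3 by 1.83 log2 units (SE 0.23, adjusted p = 0.000262), a 3.56-fold difference. The call held in all 18 fits that left out 1 array and under 9 of 9 other settings. Among all genes 5.31% were called in that comparison, and among the components 2 of 10, Gli3 and Hhip, both higher. Relative to GFD-Ptch, Gli3 in GFD-Smo was 1.69 higher (SE 0.28, adjusted p = 0.00113), a 3.23-fold difference. The GFD minus NG difference was 1.85 larger in Smo than in Ptch tumours (SE 0.37, 95% interval 1.07 to 2.63, adjusted p = 0.0124). Leaving out GFD-Ptch replicate 2 (1.81, adjusted p = 0.0688) or adding the gender label (1.67, 0.102) ended that call. Between NG-Smo and NG-Ptch the Gli3 difference was -0.16 (95% interval -0.65 to 0.34, adjusted p = 0.950), and between GFD-Ptch and NG-Ptch it was -0.01 (-0.62 to 0.59, 0.984). Outside GFD-Smo the Gli3 levels went down to 6.31, near the lower quartiles of the arrays at 6.21 to 6.38. No detection call came with the values, so small Gli3 differences among those groups may not have been measurable.

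Astrocyte markers were high in the same tumours as Gli3 and Hhip. The mean of 8 astrocyte markers was 10.97 to 11.14 in GFD-Smo, 9.44 to 9.91 in NG-Smo, 8.35 to 10.26 in GFI-Ptch, 8.64 to 8.78 in GFD-Ptch and 9.64 to 9.71 in NG-Ptch. Between GFD-Smo and NG-Smo all 8 lay above 0 and 5 were called higher (Gja1, Gjb6, Aqp4, Aldh1l1 and Gfap). For the difference between models 6 of 8 passed, all positive, and between GFD-Smo and GFD-Ptch 7 of 8 were called higher. None of the 8 was below its array's lower quartile on every array. Their part in the Gli3 and Hhip differences was not tested.

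Markers of other cell types also moved between GFD-Smo and NG-Smo. Of 7 fibroblast and pericyte markers all 7 lay above 0 and 4 were called higher. Of 5 endothelial markers all 5 lay above 0 and 1 was called higher. Of 8 microglia and macrophage markers 1 lay above 0 and 3 were called lower. The list means were 8.93 to 9.30 against 8.47 to 8.82 for fibroblasts and pericytes, and 9.52 to 9.77 against 10.12 to 10.22 for microglia and macrophages. None of the 10 granule neuron progenitor markers was called in that comparison. Between GFD-Smo and GFD-Ptch 2 of the 10, Neurod2 and Neurod1, were called lower, against 15.6% of all genes called. The other 8, Atoh1 among them, were not called, and 2 of the 10 lay above 0. In the averaged Smo minus Ptch change Neurod1 was called lower, against 13.4% of all genes called. There 3 of the 10 lay above 0, with a median of -0.19. The part of these markers was not tested.

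**Figure D2:**
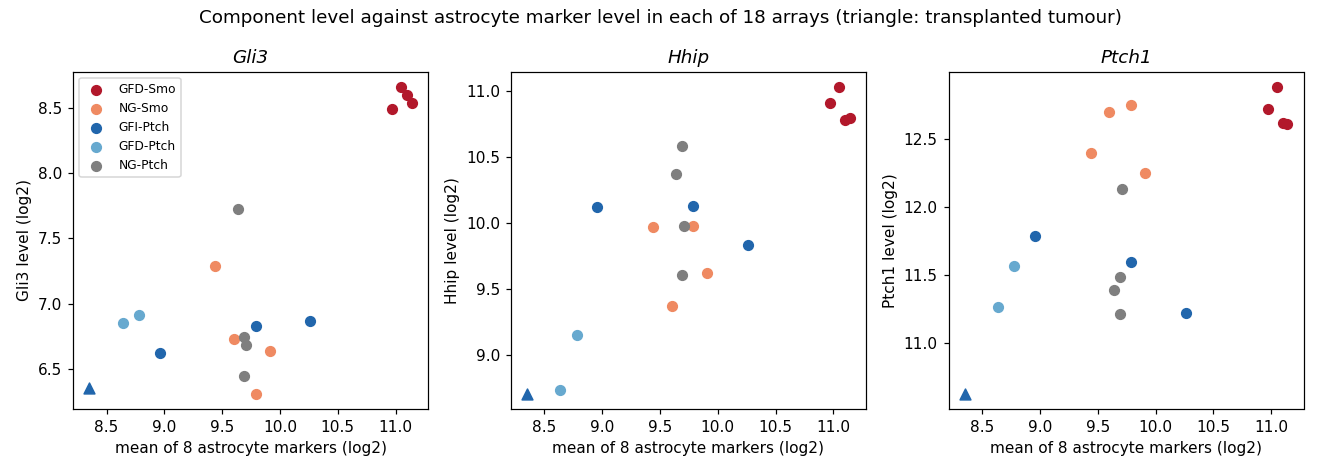
Log2 level of Gli3, Hhip and Ptch1 (vertical axes) against the mean log2 level of 8 astrocyte markers (horizontal axis) on each of 18 arrays, coloured by group, with the transplanted tumour as a triangle. The 4 GFD-Smo arrays lie at the upper right for Gli3 and Hhip, with marker means of 10.97 to 11.14, while for Ptch1 the NG-Smo arrays are also high.

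Sufu, the inhibitor that binds the Gli factors, was lower in NG-Smo than in NG-Ptch. Levels were 10.90, 11.05, 10.97 and 11.08 in GFD-Smo and 10.90, 10.78, 11.05 and 11.24 in NG-Smo. GFI-Ptch tumours read 11.34, 11.44, 11.51 and 11.00, GFD-Ptch tumours 11.44 and 11.13, and NG-Ptch tumours 11.66, 11.68, 11.63 and 11.35. Every NG-Ptch array was above every Smo array, and the transplanted tumour and GFD-Ptch replicate 2 were the Ptch arrays within the Smo range. Between NG-Smo and NG-Ptch 5.65% of all genes did not overlap. Sufu averaged 11.00 ± 0.08 in GFD-Smo, 10.99 ± 0.20 in NG-Smo, 11.32 ± 0.23 in GFI-Ptch, 11.29 ± 0.22 in GFD-Ptch and 11.58 ± 0.15 in NG-Ptch. The descending order was NG-Ptch, GFI-Ptch, GFD-Ptch, GFD-Smo and NG-Smo. Between GFD-Ptch and GFD-Smo the arrays were apart, as was so for 57.1% of all genes between these groups, and the other neighbours overlapped.

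Sufu was the single component called between NG-Smo and NG-Ptch, at -0.59 log2 units (SE 0.12, adjusted p = 0.0307), or 1.50-fold lower. In that comparison 1.04% of all genes were called. The call was lost without NG-Smo replicate 1 (-0.56, adjusted p = 0.0687), 2 (-0.52, 0.0859) or 3 (-0.61, 0.0629). It was likewise lost without NG-Ptch replicate 1 (-0.56, 0.0745), 2 (-0.56, 0.101) or 4 (-0.57, 0.0852), with the gender label (-0.56, 0.113) and with only these groups fitted (-0.59, 0.103). Microglia and macrophage markers also differed, as all 8 lay above 0 for NG-Smo minus NG-Ptch and 3 were called higher. Their list means were 10.12 to 10.22 in NG-Smo, against 9.48 to 9.94 in NG-Ptch, and their part was not tested. Averaged over both subtypes, Sufu fell by 0.44 in Smo tumours (SE 0.09, adjusted p = 0.00665), a call lost without GFD-Ptch replicate 1 (-0.36, 0.0555). Within GFD tumours the difference was -0.29 (SE 0.15, adjusted p = 0.183).

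Gli1 and Gli2 are the activating factors. Gli1 levels were 10.33, 10.42, 10.39 and 10.50 in GFD-Smo, 9.88, 9.85, 10.31 and 10.18 in NG-Smo, and 10.45, 10.43, 10.60 and 9.76 in GFI-Ptch. They were 10.26 and 10.06 in GFD-Ptch and 10.38, 10.48, 10.50 and 10.42 in NG-Ptch. The NG-Smo arrays lay below those of GFD-Smo and of NG-Ptch without overlap, and the transplanted tumour was lowest of all. Of all genes 12.6% did not overlap between GFD-Smo and NG-Smo and 5.65% between NG-Smo and NG-Ptch. GFD-Smo averaged 10.41 ± 0.07, NG-Smo 10.06 ± 0.23, GFI-Ptch 10.31 ± 0.38, GFD-Ptch 10.16 ± 0.14 and NG-Ptch 10.44 ± 0.06. In the order NG-Ptch, GFD-Smo, GFI-Ptch, GFD-Ptch and NG-Smo, from high to low, neighbours overlapped.

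No Gli1 difference passed the test. It was 0.36 between GFD-Smo and NG-Smo (SE 0.15, adjusted p = 0.218) and -0.39 between NG-Smo and NG-Ptch (SE 0.15, adjusted p = 0.301). Without the transplanted tumour these had adjusted p-values of 0.0272 and 0.0449. The difference between models was 0.64 (SE 0.23, adjusted p = 0.143), and 0.0182 without that tumour.

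Gli2 levels were 9.75, 10.01, 9.77 and 10.09 in GFD-Smo and 9.80, 9.82, 10.11 and 10.12 in NG-Smo. They were 10.33, 10.62, 10.53 and 10.0008 in GFI-Ptch, 10.53 and 10.26 in GFD-Ptch, and 10.24, 10.24, 10.56 and 10.06 in NG-Ptch. Smo tumours thus tended to the low end, with overlap in the transplanted tumour and NG-Ptch replicate 5. GFD-Smo averaged 9.90 ± 0.17, NG-Smo 9.96 ± 0.18, GFI-Ptch 10.37 ± 0.27, GFD-Ptch 10.40 ± 0.19 and NG-Ptch 10.27 ± 0.21. The order from the top was GFD-Ptch, GFI-Ptch, NG-Ptch, NG-Smo and GFD-Smo, and all neighbours overlapped. Averaged over NG and GFD, Gli2 fell by 0.40 in Smo tumours (SE 0.11, adjusted p = 0.0252). The call was lost without GFD-Smo replicate 1 (-0.37, adjusted p = 0.0512) or 3 (-0.38, 0.0523), or GFD-Ptch replicate 1 (-0.33, 0.124). Within GFD tumours the difference was -0.49 (SE 0.17, adjusted p = 0.0616), which passed without the transplanted tumour (0.0281).

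Smo encodes the transducer and names one of the models. Its levels were 11.24, 11.41, 11.20 and 11.40 in GFD-Smo, 11.35, 11.49, 11.80 and 11.69 in NG-Smo, and 11.41, 11.12, 11.56 and 11.32 in GFI-Ptch. They were 11.67 and 11.59 in GFD-Ptch and 11.37, 11.13, 11.76 and 11.42 in NG-Ptch. Neither Smo group stood out from every Ptch group by the level of this probe set, and whether its probes read the altered allele is not given here. GFD-Smo averaged 11.31 ± 0.10, NG-Smo 11.58 ± 0.20, GFI-Ptch 11.35 ± 0.18, GFD-Ptch 11.63 ± 0.06 and NG-Ptch 11.42 ± 0.26. Ranked from GFD-Ptch through NG-Smo, NG-Ptch and GFI-Ptch down to GFD-Smo, each overlapped with its neighbour. In the main fit Smo was called in none of the 8 comparisons. The difference was 0.16 between NG-Smo and NG-Ptch (95% interval -0.10 to 0.43, adjusted p = 0.793) and -0.31 between GFD-Smo and GFD-Ptch (-0.64 to 0.01, 0.165). GFD-Smo arrays lay below both GFD-Ptch arrays without overlap, as was so in either direction for 57.1% of all genes. With only those groups fitted in limma, Smo was called lower there (adjusted p = 0.021).

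Among the co-receptors, Boc showed a small difference between models. Its levels were 11.58, 11.76, 11.62 and 11.72 in GFD-Smo, 11.27, 11.27, 11.45 and 11.66 in NG-Smo, and 11.99, 11.81, 12.14 and 11.50 in GFI-Ptch. They were 11.81 and 11.94 in GFD-Ptch and 11.83, 11.72, 11.93 and 11.71 in NG-Ptch. Both Smo groups lay below their Ptch counterparts of the same subtype without overlap. Of all genes, 57.1% did not overlap between GFD-Smo and GFD-Ptch and 5.65% between NG-Smo and NG-Ptch. GFD-Smo averaged 11.67 ± 0.08, NG-Smo 11.41 ± 0.19, GFI-Ptch 11.86 ± 0.27, GFD-Ptch 11.87 ± 0.09 and NG-Ptch 11.79 ± 0.10. The highest was GFD-Ptch, then GFI-Ptch, NG-Ptch, GFD-Smo and NG-Smo, with overlap between neighbours. The averaged Smo minus Ptch change of Boc was -0.29 (SE 0.09, adjusted p = 0.0459), near the threshold. It kept its call in 4 of 18 fits that left out 1 array, those without GFI-Ptch replicate 1, 3 or 4 or NG-Smo replicate 4. The other 14 gave -0.33 to -0.26 with adjusted p-values of 0.0554 to 0.195.

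Gas1, a membrane-anchored co-receptor, was highest in NG-Ptch. It read 9.80, 9.59, 9.69 and 9.74 in GFD-Smo, 9.40, 9.82, 9.80 and 9.50 in NG-Smo, and 9.63, 9.46, 9.46 and 9.67 in GFI-Ptch. Its levels were 9.68 and 9.24 in GFD-Ptch and 9.95, 9.82, 10.18 and 9.80 in NG-Ptch. Within the Ptch model, NG tumours were above GFI and GFD tumours without overlap, which was so in either direction for 4.86% of all genes between GFI-Ptch and NG-Ptch and 34.6% between GFD-Ptch and NG-Ptch. GFD-Smo averaged 9.70 ± 0.09, NG-Smo 9.63 ± 0.21, GFI-Ptch 9.55 ± 0.11, GFD-Ptch 9.46 ± 0.31 and NG-Ptch 9.94 ± 0.17. NG-Ptch led GFD-Smo, NG-Smo, GFI-Ptch and GFD-Ptch in that order, and neighbours overlapped. Neither Ptch difference passed, at -0.38 for GFI-Ptch minus NG-Ptch (SE 0.12, adjusted p = 0.329) and -0.47 for GFD-Ptch minus NG-Ptch (SE 0.14, adjusted p = 0.177). Cdon, the third co-receptor, read 5.61 to 5.79 over all 18 arrays, below the lower quartile of every array, which lay at 6.21 to 6.38. No detection call came with the values, so a Cdon difference between groups may not have been measurable.

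**Figure D3:**
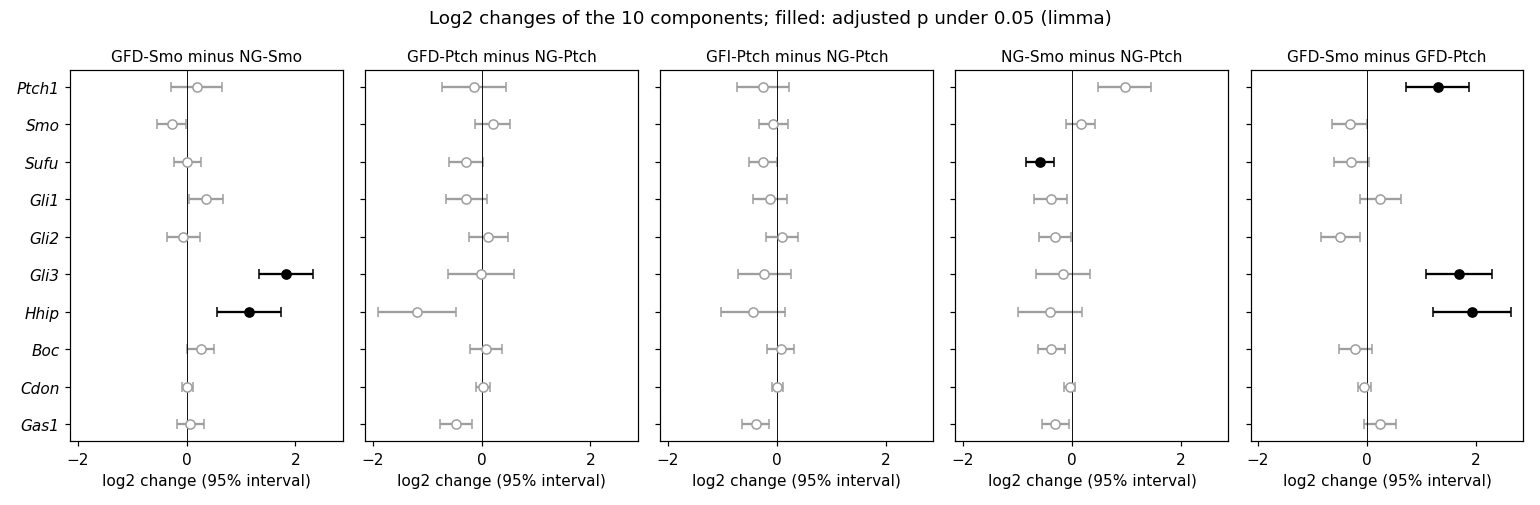
Log2 change with its 95% interval (horizontal axis) for each of the 10 components in 5 comparisons, where a filled point has an adjusted p under 0.05 in limma. Filled points are Gli3 and Hhip between GFD-Smo and NG-Smo, Sufu between NG-Smo and NG-Ptch, and Ptch1, Gli3 and Hhip between GFD-Smo and GFD-Ptch.

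Across the 3 Ptch subtypes, which the study's title sets out to profile, no component passed the test. For GFI-Ptch minus NG-Ptch limma called 0 of the 10 components and 0 of all genes (0%), while 2 components (Gas1 and Sufu, both lower) and 1701 genes (8.53%) had an unadjusted p under 0.05. Between GFD-Ptch and NG-Ptch it called 0 components and 0.01% of all genes, and at an unadjusted p under 0.05 there were 2 components (Hhip and Gas1, both lower) and 16.9% of genes. Between GFI-Ptch and GFD-Ptch it called 0 components and 0.00502% of all genes, and 1 component, Hhip, had an unadjusted p under 0.05, as did 9.79% of genes. The Hhip difference there was 0.75 (SE 0.34, adjusted p = 0.485), or 1.08 with an adjusted p of 0.101 without the transplanted tumour. The first pair of comparisons shares the NG-Ptch arrays.

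The transplanted tumour read lower than the other GFI-Ptch tumours for 7 of the 10 components. Hhip was 1.32 below their mean, Ptch1 0.91, Gli1 0.74, Gli2 0.49, Boc 0.47, Sufu 0.43 and Gli3 0.42, each outside the range of the other 3. For Ptch1, Gli1 and Hhip it was the lowest of the 18 arrays. Gas1 (9.67) and Cdon (5.78) read above the other 3. How many of all genes this tumour placed outside the other 3, or lowest of the 18, was not counted. Without it, the GFI-Ptch minus NG-Ptch differences were -0.02 for Ptch1, 0.05 for Gli1 and -0.11 for Hhip. Beside its high skeletal muscle list, its oligodendrocyte progenitor list stood at 7.86, against 9.07 to 10.01 in the other 3, and its astrocyte list at 8.35, against 8.96 to 10.26. Its microglia and macrophage list was at 9.24, where the lowest of the other 3 was 9.50, and its granule neuron progenitor list at 11.08, against 11.18 to 11.30. The fibroblast and pericyte, meninges and choroid plexus lists were below the other 3 as well, and the endothelial list was above them at 8.16. The part of these lists in its low values was not tested.

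**Figure D4:**
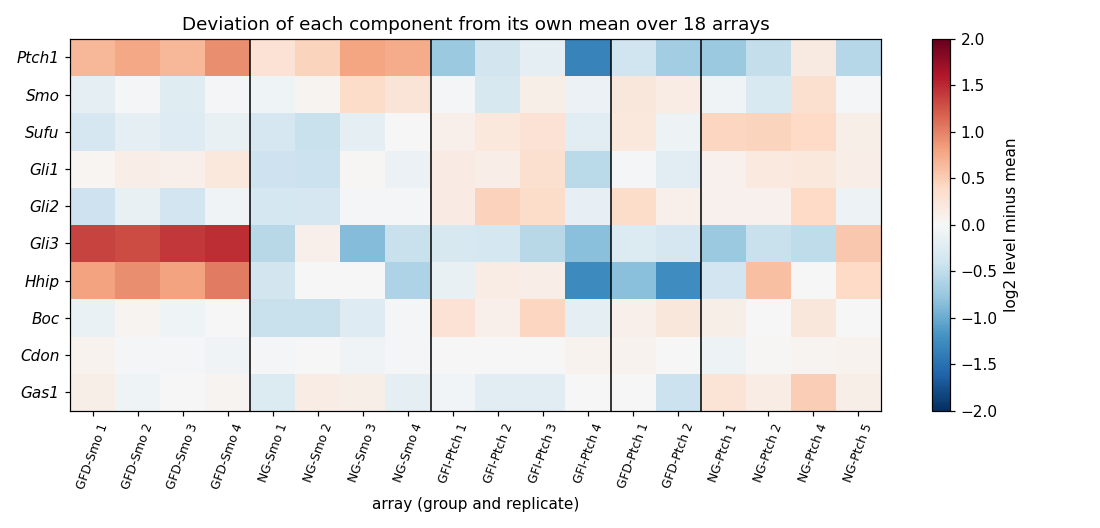
Deviation of each component (rows) from its own mean over 18 arrays, in log2 units by colour, for each array (columns), with vertical lines between groups. Gli3 and Hhip are high in the 4 GFD-Smo columns, Ptch1 is high in all 8 Smo columns, and the transplanted tumour, GFI-Ptch 4, is low for 7 components against the other GFI-Ptch columns.

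Averaged over the NG and GFD subtypes, 6 of the 10 components differed between Smo and Ptch tumours. Ptch1, Gli3 and Hhip were higher in Smo tumours and Sufu, Gli2 and Boc lower, against 13.4% of all genes called. The median change of the 10 was -0.05, against -0.03 over all genes. Markers of other cells moved in the same comparison. Called higher were 6 of 8 astrocyte markers (median change 1.47) and 5 of 8 microglia and macrophage markers (0.48). So were 2 of 7 oligodendrocyte progenitor and 2 of 7 fibroblast and pericyte markers. Their part in the component differences was not tested. For Gli3 and Hhip the average was 0.77 each (SE 0.18 and 0.22, adjusted p = 0.0122 and 0.0298), but it pooled unequal parts, since in NG tumours their differences were -0.16 and -0.40. Gli3 lost this call without GFD-Ptch replicate 2 (0.75, adjusted p = 0.0621). Hhip lost it without GFD-Smo replicate 4 (0.74, 0.0515), NG-Smo replicate 2 (0.73, 0.0550) or 3 (0.73, 0.0560), or NG-Ptch replicate 1 (0.68, 0.0550) or 4 (0.74, 0.0533). It also lost it without GFD-Ptch replicate 1 (0.87, 0.0535) or 2 (0.66, 0.161).

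Other pathway genes were taken from lists of ligands, membrane proteins, cytoplasmic and ciliary regulators and targets, of which 49 of 55 were analysed here. The ligand gene Shh lay at 7.04 to 7.40 on all arrays, with means of 7.19 ± 0.12 in GFD-Smo, 7.22 ± 0.14 in NG-Smo, 7.21 ± 0.12 in GFI-Ptch, 7.38 ± 0.01 in GFD-Ptch and 7.27 ± 0.11 in NG-Ptch. It was called in none of the 8 comparisons. Its averaged Smo minus Ptch change passed with the transplanted tumour and NG-Smo replicate 4 left out (-0.15, adjusted p = 0.0473).

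Between GFD-Smo and NG-Smo 0 of the 49 were called higher and 2 were called lower, or 4.08%, below the 5.31% of all genes. Ccnd2, a D cyclin and target that drives the cell cycle, had levels of 12.17, 12.34, 12.13 and 12.22 in GFD-Smo, against 12.66, 12.66, 12.87 and 13.11 in NG-Smo. These did not overlap (12.6% of all genes did not), and the change was -0.61 (SE 0.11, adjusted p = 0.0046). The other was Bmi1, a Polycomb gene, at -0.44 (SE 0.10, adjusted p = 0.0145), which lost the call without GFD-Smo replicate 2 (-0.38, 0.0572).

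Between GFD-Smo and GFD-Ptch 4 of the 49 were called higher and 2 were called lower, or 12.2%, below the 15.6% of all genes. Ccnd2 fell by 1.07 in GFD-Smo (SE 0.14, adjusted p = 0.000183), with 13.39 and 13.18 in GFD-Ptch. Nkx2-2, a homeobox target in the neural tube, was 1.22 higher (SE 0.25, adjusted p = 0.0045). In this comparison all 7 oligodendrocyte progenitor markers lay above 0 and 3 were called higher. Of 8 microglia and macrophage markers 6 lay above 0 and 4 were called higher. The part of these cell type markers in the pathway gene changes was not tested. Tulp3, which helps carry receptors into the cilium, changed by -0.80 (SE 0.19, adjusted p = 0.012), and Efcab7, part of the ciliary complex that relays Smo activity, by 0.71 (SE 0.15, adjusted p = 0.00594). Without GFD-Ptch replicate 1 the Tulp3 change was -0.57 (0.133) and that of Efcab7 0.68 (0.0514), and without GFD-Ptch replicate 2 Efcab7 had 0.73 (0.0524), so these calls were lost.

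Efcab7 was also the single one of the 49 called between NG-Smo and NG-Ptch, at 0.56 (SE 0.12, adjusted p = 0.0442), which is 2.04% of them, against 1.04% of all genes. Its levels were 8.35, 7.60, 7.77 and 7.71 in NG-Smo, against 7.23, 7.50, 7.14 and 7.30 in NG-Ptch, with no overlap, as for 5.65% of all genes. The call held in 4 of the 18 fits that left out 1 array, those without NG-Smo replicate 1, 2 or 4 or the transplanted tumour. Without NG-Smo replicate 3 it was 0.59 (0.079), and the largest adjusted p was 0.144, without NG-Ptch replicate 4. None of the 49 was called in any of the 3 Ptch comparisons.

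For the average of Smo minus Ptch, 4 of the 49 were called higher and 3 called lower, a share near the 13.4% of all genes called. The changes were led in size by Ccnd2 (-0.71, SE 0.09, adjusted p = 0.000194), Nkx2-2 (0.68, SE 0.16, adjusted p = 0.012) and Efcab7 (0.63, SE 0.10, adjusted p = 0.000747). Sfrp1, a secreted Wnt inhibitor, changed by -0.55 (SE 0.14, adjusted p = 0.0172). Without GFD-Ptch replicate 1 the Nkx2-2 change was 0.65 (0.0572) and that of Sfrp1 -0.46 (0.0982), neither of them called.

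The difference of GFD minus NG between models was positive for Bcl2, a survival gene (0.68, SE 0.14, adjusted p = 0.0143), and Rab34, a ciliary GTPase gene (0.44, SE 0.11, adjusted p = 0.0441), and negative for Ccnd2 (-0.72, SE 0.18, adjusted p = 0.0399). The other 46 were not called, so 6.12% passed, against 3.81% of all genes. Bcl2 lost its call without GFD-Ptch replicate 2 (0.59, 0.108). Ccnd2 kept its call in 7 of the 18 fits that left out 1 array, those without any 1 GFI-Ptch array, NG-Smo replicate 1 or 2, or NG-Ptch replicate 4. Rab34 kept it in 6, those that left out NG-Smo replicate 2, 3 or 4, NG-Ptch replicate 4, or GFI-Ptch replicate 2 or 4. The largest adjusted p came without GFD-Ptch replicate 1 for both, 0.146 and 0.138. With the gender label as a covariate none of these 3 was called.

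The genes most like each of the 4 most variable components were found by the root mean square difference of their centred log2 values over the 18 arrays. Being picked by likeness on these same arrays, such genes share a component's pattern by choice. For Hhip they were Ppargc1a (0.33), Sgk3 (0.33) and Pcx (0.37), where Hhip itself varied by 0.68. Those nearest to Gli3 were Eya4 (0.30), Igf2bp3 (0.30) and Slc7a10 (0.31), where Gli3 varied by 0.81. Nearest to Ptch1 were H2bc3 (0.34), Gucy1a1 (0.35) and Rgs5 (0.36), against 0.67 for Ptch1. Rgs5 is also among the 7 fibroblast and pericyte markers. It was called higher between GFD-Smo and GFD-Ptch and in the averaged Smo minus Ptch change. Nearest to Sufu were Rai1 (0.12), Whamm (0.13) and Dennd1a (0.13), against 0.28. Igf2bp3 averaged 8.22 ± 0.18 in GFD-Smo and 6.31 ± 0.04 in NG-Smo. It had 6.38 ± 0.04 in GFI-Ptch, 6.40 ± 0.00 in GFD-Ptch and 6.35 ± 0.06 in NG-Ptch, so it shared with Gli3 the high level in GFD-Smo alone. Sgk3 followed Hhip in both models, at 9.28 ± 0.03 in GFD-Smo and 7.93 ± 0.10 in NG-Smo. In the Ptch model it had 7.11 ± 0.53 in GFD tumours and 8.29 ± 0.26 in NG tumours.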

How the data were processed

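Total RNA came from Trizol extraction, and its biotinylated cDNA went on 1 array per tumour, per the labels' protocols. The deposited log2 values were made with Partek 6.6, per the submitters' processing notes. The settings, background correction, probe summary and scaling between arrays are not given in the sources used here. The log2 base was read from the values, which ran from 4.22 to 14.32. They were used as deposited, and for arrays their number limits the precision.

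Of 35556 probe sets 21789 had 1 gene symbol, 1621 several and 12146 none in the platform table. Where a gene had several probe sets (999 genes), the one with the highest mean stood for it. One limma 3.58.1 model (R 4.3.3) held all 18 arrays (group means, empirical Bayes, two-sided tests, 13 residual and 2.448 prior degrees of freedom) and was tested on simulated data. P-values were adjusted by Benjamini and Hochberg over 19938 genes, for 8 contrasts. Plots were drawn with matplotlib 3.10.9.

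All 10 components were named. From the pathway lists up to 4 called genes of largest change per contrast were named, and Shh always. A further gene that the rule names is not reported here. The components, lists, markers and rules were chosen with earlier results of these data known. No array pair was identical, and no sample was left out of the main comparisons. Alternatives were quantile normalization, median centring, a filter on dim genes, the mean over probe sets, array weights, the gender label, the replicate number as a block, only the groups compared, each array left out, and the transplanted tumour and NG-Smo replicate 4 left out together. The gender label was M or F for 13 of the 18 arrays, and whether calls lost with it reflect sex was not tested.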

Additional observations from a re-analysis of the deposited data

Results flagged for a closer look

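Gli3 and Hhip met the test of a difference between the models. The GFD minus NG difference in Smo tumours exceeded that in Ptch tumours by 1.85 log2 units for Gli3 and by 2.33 for Hhip.

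Among 40 combinations of a component and a group of 4 arrays, 2 held an array far from the other 3, by Dixon's ratio at a critical value of 0.829, and chance flags about 1 in 20 such groups. Sufu read 11.35 in NG-Ptch replicate 5, the lowest of its group (ratio 0.860). Cdon read 5.78 in the transplanted tumour, the highest of its group (ratio 0.838), below its array's lower quartile.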

How the results depend on the processing

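No component reversed a called change under any of the alternatives. Here both arrays are the transplanted tumour and NG-Smo replicate 4. For components called between GFD-Ptch and NG-Ptch, array weights gave 1 (Hhip, adjusted p = 0.0449), leaving out both arrays gave 1 (0.0201), and leaving out 1 array gave 0 to 1, against 0. Between GFD-Smo and NG-Smo, array weights gave 3 (Gli1 added), leaving out both arrays gave 4 (Gli3, Hhip, Gli1 and Boc) and leaving out 1 array gave 1 to 3, against 2. Between NG-Smo and NG-Ptch, median centring and the dim filter gave 2, array weights 3 and leaving out both arrays 4. The gender label, the replicate block and only the groups compared gave 0, and leaving out 1 array gave 0 to 4, against 1. Between GFD-Smo and GFD-Ptch, array weights gave 5, only the groups compared 6, the gender label and leaving out both arrays 4 each (Gli2 added), and leaving out 1 array 2 to 4, against 3. For the average, median centring, the gender label and the replicate block gave 5 each (Boc lost), and leaving out 1 array gave 2 to 6, against 6. For the difference between models, the gender label gave 0, array weights, only the groups compared and leaving out both arrays 3 each (Gli1 added), and leaving out 1 array 0 to 3, against 2. Of the 49 other pathway genes, array weights called 1 for GFI-Ptch minus NG-Ptch and 1 for GFD-Ptch minus NG-Ptch, as did leaving out both arrays for the second, against 0. Between GFD-Smo and NG-Smo array weights gave 4, leaving out both arrays 5 and leaving out 1 array 1 to 5, against 2. Between NG-Smo and NG-Ptch the dim filter gave 2, array weights 4, leaving out both arrays 5, the gender label, the replicate block and only the groups compared 0, and leaving out 1 array 0 to 3, against 1. Between GFD-Smo and GFD-Ptch array weights gave 11 and only the groups compared 14, against 6. For the average, leaving out both arrays gave 17 and leaving out 1 array 3 to 10, against 7. For the difference between models the gender label gave 0, the replicate block 1 and leaving out 1 array 0 to 4, against 3. Over all genes, the alternatives that kept every array or left out both called 0 to 180 for GFI-Ptch minus NG-Ptch (0 reported), 0 to 689 for GFD-Ptch minus NG-Ptch (2), 0 to 64 for GFI-Ptch minus GFD-Ptch (1), 810 to 1740 for GFD-Smo minus NG-Smo (1058), 34 to 1169 for NG-Smo minus NG-Ptch (208), 2217 to 6709 for GFD-Smo minus GFD-Ptch (3110), 1746 to 6416 for the average (2662) and 188 to 1484 for the difference between models (759). The causes were not tested. Whether replicate numbers paired the samples could not be decided from so few arrays. Same-numbered GFD-Smo and NG-Smo arrays correlated at -0.28 to 0.09 in their deviations, with 0 of 4 best with their own number. NG-Smo and NG-Ptch arrays did so at 0.04 to 0.08 and GFI-Ptch and NG-Ptch arrays at -0.16 to 0.08, each with 2 of 3 best with their own number. With the number as a block, Sufu lost its call between NG-Smo and NG-Ptch (-0.69, adjusted p = 0.0912) and Boc lost that of the average (-0.35, 0.0764).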
